A study of Mus musculus with 2 samples.

Results

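Transmembrane mucins are large glycoproteins that span the plasma membrane of epithelial cells and carry a long, densely O-glycosylated outer domain. The 6 genes described here, Muc1, Muc3, Muc4, Muc13, Muc16 and Muc20, were chosen by symbol. For each symbol, the row whose Ensembl gene identifier maps to it was taken from both gene tables. A row was found for 5 of the 6 genes, among 43346 Ensembl genes in all, and Muc16 matched none. The tissue was the sigmoid colon of 1 female mouse, an adult of the inbred strain C57BL/6J at 10 weeks of age, with no treatment or altered allele named in the labels. Polyadenylated RNA of this mouse was sequenced as 2 technical libraries, numbered 1 and 2 as technical replicates in the labels. RNA was extracted with a kit made for lipid-rich tissue, and library 2 was made in 2015, later than library 1. The libraries form 1 group, so no condition was compared and each ± is an SD over n = 2 technical libraries that does not cover differences between mice.

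In the colon, transmembrane mucins form the glycocalyx, the sugar-rich coat on the brush border beneath the secreted mucus gel. Many are cleaved into an outer and a membrane-anchored subunit that stay bound to each other, often at a folded unit called the SEA module, and the outer subunit can be shed. Their short cytoplasmic tails can bind signalling and scaffold proteins, and several members are known to associate with receptor tyrosine kinases.

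The libraries differed widely. Library 1 held 25843064 expected counts and library 2 held 20681574. Genes on the mitochondrial chromosome took 24.1% of the counts and 44.2% of the TPM (a transcript level corrected for length and scaled to the same total in each library) in library 1, against 5.59% and 12.6% in library 2. A count of 0 allowed up to 3 counts per library. Scaled to the total, that limit was 0.116 counts per 1e6 (CPM) for library 1, against 0.145 CPM for library 2. Floors and intervals cover counting error only. Of 10 epithelial marker genes all 10 were counted in both libraries, with summed levels of 1273 and 8985 TPM. By expected counts scaled to library size, 6 of these were at least 2-fold higher in library 2, 1 was lower and 3 were within 2-fold. Over all genes tested, 37.2% were higher and 28.3% lower. Krt8, at 57.1% GC, was at 60.7 and 2931 TPM, while Epcam and Cdh1 had log2 ratios of -0.08 and -0.05. The 7 goblet cell markers summed to 4632 and 28589 TPM, with 5 higher, 0 lower and 2 within 2-fold by scaled counts. The 6 absorptive colonocyte markers summed to 3898 and 16053 TPM, with 4 higher, 1 lower and 1 within 2-fold. The 5 squamous epithelial markers summed to 0.04 and 1.27 TPM, with 4 of 5 at 0 counts in library 1, and Krt4 at 0 in both. The 5 mesothelial markers summed to 2.39 and 9.16 TPM, with 2 higher, 1 lower and 2 within 2-fold. Of the 3 urothelial markers, Upk2 and Upk3a had 0 counts in library 1 and 1 count each in library 2, while Upk1a had 2 and 271 counts. In bulk tissue, fewer cells of a type and less RNA per cell cannot be told apart for a marker at a low level. As both libraries are technical replicates of 1 mouse, differences between them are not read here as differences in cells. The cause of those differences was not tested.

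The 5 matched members spanned a wide range of levels and kept 1 order in both libraries. Muc3 was highest, followed by Muc13, Muc4, Muc1 and Muc20. Summed over the members, the level was 882 TPM in library 1 and 2616 TPM in library 2 (1749 ± 1226). Each member's TPM was higher in library 2, by 2.86-fold for Muc3, 3.17-fold for Muc13, 3.79-fold for Muc4 and 5.38-fold for Muc1, with Muc20 at 2-fold on 5 and 7 counts. TPM was higher in library 2 for most genes. Of all genes tested, 54.4% were at least 2-fold higher by TPM, and the median log2 ratio of TPM was 1.18. The library values of neighbouring members did not overlap, though Muc3 in library 1, at 649.84 TPM, and Muc13 in library 2, at 646.7 TPM, nearly met. As mean ± SD, Muc3 (1255 ± 856 TPM) overlapped Muc13 (425 ± 313 TPM), Muc13 overlapped Muc4 (63.4 ± 52.2 TPM), and Muc1 (5.23 ± 5.08 TPM) overlapped Muc20 (0.15 ± 0.0707 TPM). Only the step from Muc1 to Muc4 was larger than that spread, while every step held within each library. Within a library, Muc3 was 3.19 and 2.88 times Muc13, Muc13 was 7.71 and 6.44 times Muc4, and Muc4 was 16.1 and 11.4 times Muc1.

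**Figure D1:**
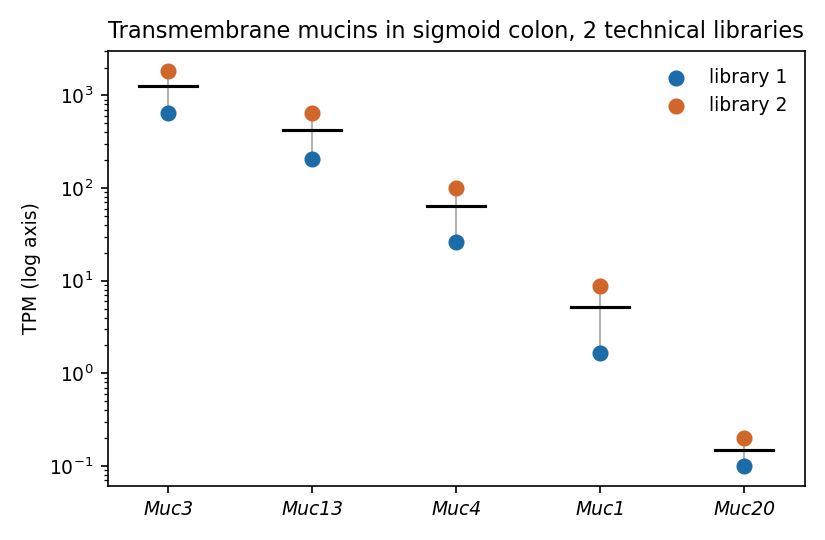
Level of each matched transmembrane mucin (TPM, log axis) in library 1 and library 2, with a black bar at the mean of the 2 libraries. Muc3 stood highest and Muc20 lowest in both, and each member's library 2 point lay above its library 1 point. By TPM, 54.4% of all genes tested were at least 2-fold higher in library 2.

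The balance among the members varied less between libraries than their levels did. Shares of the members' sum do not depend on library scaling, as levels do, so the smaller spread follows in part from the measure. Muc3 made up 73.7% of the summed member TPM in library 1 and 71.1% in library 2 (72.4 ± 1.82%). Muc13 made up 23.1 and 24.7% (23.9 ± 1.12%), and Muc4 made up 3.0 and 3.84% (3.42 ± 0.590%). Muc1 held 0.186 and 0.337% (0.262 ± 0.107%). Shares of expected counts, which are not corrected for length, gave Muc4 more weight: 8.93 and 8.33% for Muc4, 59.2 and 57.4% for Muc3, and 31.7 and 34.0% for Muc13. Muc3 and Muc13 together carried most of the member signal under both units.

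Against Muc2, the gel-forming mucin that goblet cells secrete, the comparison depended on the unit. Muc2 stood at 2106 and 6464 TPM, and the members' summed TPM was 0.419 and 0.405 times that level. By expected counts, Muc2 had 23109 and 150111 counts and the members 42729 and 75612, a ratio of 1.85 in library 1 and 0.504 in library 2. The effective length that the deposited tables used for Muc2 was 456 bases in library 1 and 1617 bases in library 2. The TPM of Muc2, and the ratio to it, therefore rests on a transcript mix that differed between the libraries. The other 4 secreted mucins in the list were nearly undetected: Muc5ac had 0 counts in both libraries, Muc5b had 2 and 0, Muc6 had 8 and 11, and Muc19 had 0 and 6.

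Muc3 encodes an intestinal membrane mucin with a SEA module and epidermal growth factor-like domains next to the membrane. It is annotated as ENSMUSG00000037390.11 at chr5:137134922-137149322 on the minus strand of GRCm38, the assembly also called mm10. Muc3 had 25299 counts in library 1 and 43382 in library 2, and stood at 649.84 and 1860.2 TPM. That placed it at rank 35 and rank 34 among 21461 nuclear protein-coding genes, so its place near the top hardly differed between the libraries. By expected counts scaled to library size (TMM), the log2 ratio of library 2 over library 1 was 0.35 (95% interval 0.33 to 0.37), a factor of 1.27. One transcript, Muc3-201, of 1823 bases in the deposited tables and 11 exons, took 96.7 and 96.1% of the gene's TPM (96.4 ± 0.424%). A shorter transcript of 1289 bases took 3.32 and 3.92%.

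The gene model counted for Muc3 covers only part of the RefSeq gene. RefSeq places Muc3 at chr5:137134924-137166048, and the upstream stretch of that span holds a separate GENCODE entry, Gm3054. Gm3054 (ENSMUSG00000079174.3, chr5:137154029-137166070, minus strand) is annotated as a long intergenic non-coding RNA of 265 bases with 2 exons, on the same strand as Muc3. Library 1 had 0 counts for Gm3054, and library 2 had 641, at least 159-fold more once scaled, with the floor of 3 counts per library set for library 1. Its listed levels were 0 and 477 TPM, the latter 25.6% of the TPM of Muc3 in the same library. Its exons had 58.9 and 56.9% GC, and the trend of the library ratio at the gene's 58.1% GC was a log2 ratio of 4.01; the part of GC content in this difference was not tested. The effective length in library 2 was 93.5 bases, against 1624 for Muc3, so few counts make a high TPM. Counted together, Muc3 and Gm3054 had 25299 and 44023 counts. The transcript of Gm3054 shared 0 words of 31 bases with the Muc3 transcripts that have a sequence in GENCODE M21. The Muc3 transcript of 1289 bases has none there and was not compared.

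**Figure D2:**
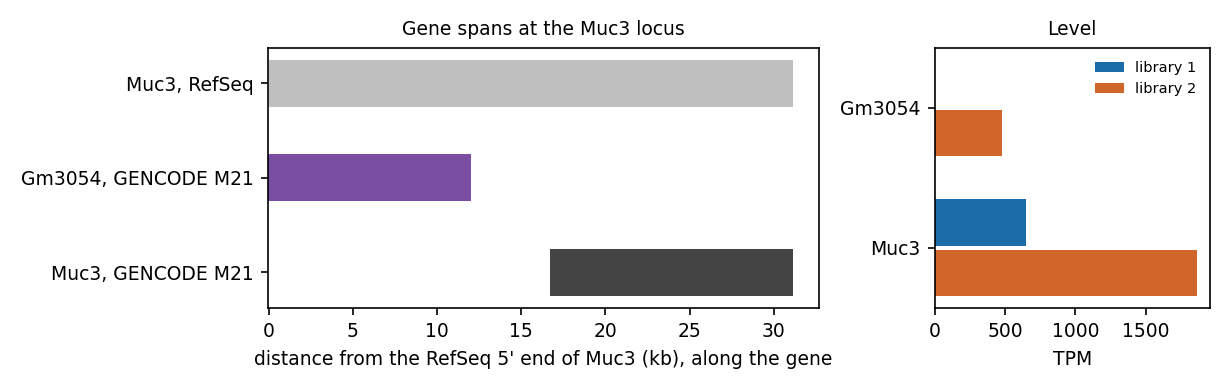
Spans of Muc3 in RefSeq, of Gm3054 and of Muc3 in GENCODE M21, as distance in kilobases from the RefSeq 5′ end along the gene (left), and level of both GENCODE genes in each library in TPM (right). Gm3054 fills the 5′ end of the RefSeq span and was at 0 in library 1 and 477 TPM in library 2.

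The bases upstream of the RefSeq start of Muc3 are printed because they lie where the RefSeq model begins, well before the GENCODE model of Muc3. The piece lies at chr5:137166071-137166296 on GRCm38 and is given 5′ to 3′ on the minus strand, from RefSeq on GRCm38.p6. Capitals mark GGTCAAAGG, a direct repeat of the kind bound by HNF4 factors.
Muc3 upstream: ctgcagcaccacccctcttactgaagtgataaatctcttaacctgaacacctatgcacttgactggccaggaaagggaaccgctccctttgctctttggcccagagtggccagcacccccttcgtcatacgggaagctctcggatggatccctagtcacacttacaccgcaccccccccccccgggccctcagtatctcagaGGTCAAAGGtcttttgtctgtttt

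The repeat in Muc3 began 48 bases before the start RefSeq gives for its window. Searched on both strands, GGTCAAAGG was found in 113 of 32851 RefSeq promoter windows of 300 bases (0.344%). The member genes had 7 windows, of which that of Muc3 and the second of Muc13 held it and the other 5 did not. The motifs were picked after these windows had been read, so the matches are a description of the letters. CACCC, the box bound by Krüppel-like factors, was found 3 times in the Muc3 window and in 57.5% of all windows.

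Muc13 encodes a smaller membrane mucin with a SEA module and epidermal growth factor-like domains, found on the apical surface of intestinal epithelium. It is annotated as ENSMUSG00000022824.8 at chr16:33794037-33819934 on the plus strand. The gene had 13530 counts in library 1 and 25674 in library 2, and stood at 204 and 647 TPM, rank 241 and rank 177 among nuclear protein-coding genes. Its log2 ratio of library 2 over library 1 was 0.49 (0.46 to 0.53), a factor of 1.41. Muc13-201, with 12 exons and a start at position 33794367, took 97.6 and 98.9% of the TPM (98.3 ± 0.955%). Muc13-202 starts further upstream, at 33794037, and took 2.42 and 1.07% (1.75 ± 0.955%). The 330 and 279 counts given to Muc13-202 had posterior SDs of 216 and 160 counts in the deposited tables, which are large beside the counts themselves. Gm15657, an antisense gene that overlaps Muc13, had 1 count in each library.

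Muc13 has 2 RefSeq promoter windows, and the second spans the start of Muc13-201. The bases of that window before this start, at chr16:33794239-33794366 (GRCm38, plus strand, RefSeq), lie in an intron of Muc13-202. They are printed as the other member window with the HNF4-type repeat, which is here on the opposite strand and in capitals.
Muc13 upstream: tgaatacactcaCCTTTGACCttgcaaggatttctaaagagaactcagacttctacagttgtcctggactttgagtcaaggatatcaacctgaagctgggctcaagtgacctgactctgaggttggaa

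The repeat began 238 bases before the start RefSeq gives for that window. It was not found in the first Muc13 window.

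Muc4 encodes a very large membrane mucin with epidermal growth factor-like domains and no SEA module, known to bind the receptor Erbb2. It is annotated as ENSMUSG00000079620.9 at chr16:32735886-32782391 on the plus strand. Muc4 had 3814 counts in library 1 and 6301 in library 2, and stood at 26.5 and 100.35 TPM (63.4 ± 52.2 TPM). The log2 ratio of counts was 0.30 (0.24 to 0.35), a factor of 1.23, whereas the TPM differed 3.79-fold, more than for Muc3 and Muc13. The effective length of Muc4 was 5983 bases in library 1 and 4371 bases in library 2, against 2754 and 2764 bases for Muc13. Rank among nuclear protein-coding genes was 2419 in library 1 and 1219 in library 2.

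Of the 8 annotated transcripts of Muc4, 5 were given reads in library 1 and 7 in library 2, and the sharing differed between the libraries. Muc4-206, of 10805 bases and 25 exons and annotated as a processed transcript, took 2947 and 3706 counts. Its share of the gene's TPM was 43.6 and 24.2% (33.9 ± 13.7%), and its share of the counts 77.3 and 58.8%. Muc4-201, the full-length protein-coding model of 11277 bases and 27 exons, took 513 and 31.5 counts, with posterior SDs of 112 and 42.3 counts. Muc4-205, a protein-coding model of 4575 bases and 24 exons that lacks the 5′ part, took 0 and 1871 counts and 0 and 29.5% of the TPM. Muc4-202, of 1348 bases and 7 exons at the 3′ end, took 337 and 632 counts, or 45.6 and 37.5% of the TPM (41.5 ± 5.74%). Muc4-206 thus had the most counts in both libraries, while Muc4-201 had more in library 1 and Muc4-205 in library 2.

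The transcripts of Muc4 have little sequence of their own, which limits these shares. Of its 31-base words, Muc4-205 had 0 of 4545 that no other Muc4 transcript holds, Muc4-206 had 37 of 9358, Muc4-201 had 58 of 9855 and Muc4-202 had 69 of 1318. At gene level the posterior SD of the count was 0 for Muc4 and for the other 4 members in both libraries, so the model moved none of their reads to or from other genes. The promoter window of Muc4 held TATAAA 36 bases before the start and TTTATNG, a site of CDX factors, 37 bases before it on the opposite strand, where both matches overlap. TATAAA occurred in 13.6% and TTTATNG in 10.9% of all windows.

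**Figure D3:**
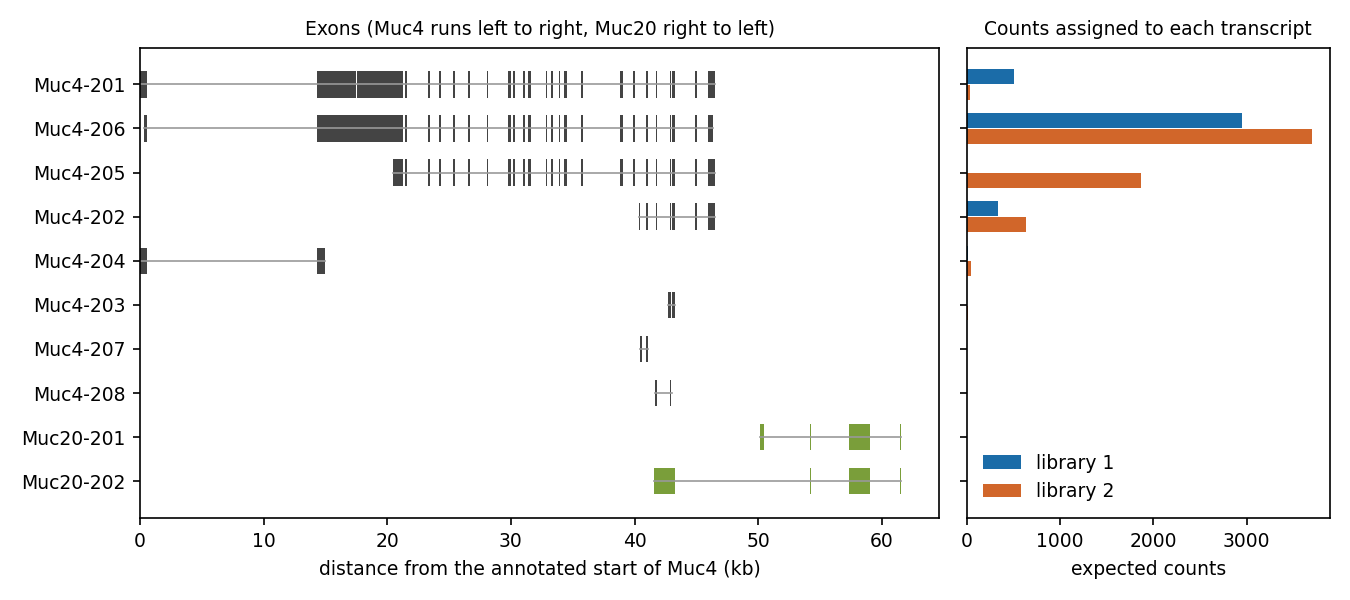
Exons of the 8 Muc4 transcripts (dark) and 2 Muc20 transcripts (green) as distance in kilobases from the annotated start of Muc4 (left), with the expected counts given to each in library 1 and library 2 (right). Muc4-206 took the most counts in both, and Muc4-205 took 0 in library 1 and 1871 in library 2.

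Muc1 encodes a membrane mucin with a SEA module whose cytoplasmic tail binds beta-catenin, and it is widely expressed on simple epithelia. It is annotated as ENSMUSG00000042784.5 at chr3:89229057-89233381 on the plus strand. Muc1 had 81 counts in library 1 and 248 in library 2, at 1.64 and 8.82 TPM (5.23 ± 5.08 TPM). It ranked 9195th and 8803rd among nuclear protein-coding genes, near the middle of the list. Its log2 ratio of counts was 1.18 (0.82 to 1.57), a factor of 2.26, higher in library 2. Muc1-201 took 100% and 93.9% of the TPM (97.0 ± 4.31%), and Muc1-203 took the rest on 2.48 counts.

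The bases upstream of Muc1, at chr3:89228956-89229055 (GRCm38, plus strand, RefSeq), are printed to set its promoter beside those of the abundant members. Capitals mark TATAAA, which began 31 bases before the start.
Muc1 upstream: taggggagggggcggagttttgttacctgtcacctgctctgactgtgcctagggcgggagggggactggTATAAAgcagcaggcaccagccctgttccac

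Among the member windows, TATAAA was found in those of Muc1 and Muc4 and in none of the others. The window of Muc1 held none of the other motifs searched.

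Muc20 encodes a small membrane mucin known to associate with the receptor Met. It is annotated as ENSMUSG00000035638.10 at chr16:32777419-32797435 on the minus strand, and its span overlaps that of Muc4 by 4973 bases. Muc20 had 5 counts in library 1 and 7 in library 2, at 0.10 and 0.20 TPM, below the mean of 10 counts required for a library ratio to be read. The counts fell on Muc20-201 (5 and 4.37), which shares no exon bases with Muc4-201, and on Muc20-202 (0 and 2.63), whose exons overlap those of Muc4-201 by 381 bases on the opposite strand. How strand was used in counting is not given in the sources used here. The posterior SD of the gene's count was 0 for both Muc20 and Muc4 in each library.

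Muc16 encodes the very large mucin that carries the CA125 antigen and binds mesothelin. Its identifier in GENCODE M21, ENSMUSG00000109564 at chr9:18495455-18674530, matched no row. Of its 4 transcripts there, 1 is in the deposited transcript tables, Muc16-201, listed under the older gene identifier ENSMUSG00000032134.6. Muc16-201 is 1035 bases long, where the longest Muc16 transcript has 25437, and it had 4 and 7 counts, at 0.20 and 0.57 TPM. The other Muc16 transcripts were not analysed here.

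Genes with levels most like each member were found by distance over log2(TPM + 0.1) in the 2 libraries, among 16828 protein-coding genes. For Muc3 they were Rps27 (609 and 1635 TPM, distance 0.208), Slc25a5 (612 and 1514 TPM) and Agr2 (727 and 2268 TPM). For Muc13 they were Atp5h (197 and 581 TPM, distance 0.162), Cox7c (192 and 726 TPM) and Rps25 (192 and 737 TPM). For Muc4 they were Ndrg2 (27.7 and 100.2 TPM, distance 0.0643), Med28 (27.3 and 96.6 TPM) and Sumo3 (25.1 and 100.9 TPM). For Muc1 they were Nudt13 (1.60 and 8.85 TPM, distance 0.0339), Stn1 and Fhdc1. Rps27 and Rps25 encode ribosomal proteins, Slc25a5, Atp5h and Cox7c encode mitochondrial proteins, and Agr2 encodes a disulfide isomerase of mucin-producing cells. With 2 libraries the likeness is mainly one of level.

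Between the libraries, 1 of the 4 members with enough counts, Muc1, was at least 2-fold apart. Of all 15705 genes with a mean of at least 10 counts, 10293 were (65.5%), with 5844 (37.2%) higher and 4449 (28.3%) lower in library 2. Muc3, Muc4 and Muc13 had log2 ratios of 0.35, 0.30 and 0.49, beside a median of 0.12 and a median size of 1.48 over all genes tested. By the ratio of TPM values instead, all 4 were at least 2-fold higher in library 2, as were 8544 of the 15705 genes (54.4%). That ratio sat above the count ratio by a median of 1.17 over all genes, and with it 91.2% of the genes past 2-fold were higher in library 2, against 56.8% by scaled counts.

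GC content moved with the library ratio across all genes, and the members lie in the middle of its range. Muc3 had 48.8% GC and Muc13 49.3%. In the bin from 48 to 50% GC, 17.4% of 1669 genes were at least 2-fold apart and the median log2 ratio was -0.10. Muc4, at 51.6%, lies in the bin from 50 to 52%, where 36.8% of 1681 genes were 2-fold apart with a median of 0.55. Muc1, at 54.1%, lies in the bin from 54 to 56%, where 85.4% of 1604 genes were apart with a median of 2.36. With the GC trend taken off, Muc3 and Muc13 were still higher in library 2 (0.50 and 0.48), whereas Muc4 came to -0.52 and Muc1 to -0.73, lower in library 2. The direction for Muc1 and Muc4 therefore depends on whether the trend is taken off, and Muc1 is then within 2-fold. Over all genes the correction left 4170 of 15648 at least 2-fold apart (26.6%), with 14.6% higher and 12.1% lower in library 2. Of the 7 goblet cell markers, all 7 were then higher, with a median of 2.08. Muc2 among them went from a log2 ratio of 2.27 to 2.08. Of the 10 epithelial markers 3 were then higher and 2 lower. The 6 absorptive colonocyte markers had 2 higher and 0 lower, and the 5 mesothelial markers 1 higher and 2 lower. With a trend on effective length taken off, the log2 ratios were -0.35 for Muc3, 0.29 for Muc13, 0.66 for Muc4 and 0.67 for Muc1, none past 2-fold, against 10506 of 15705 genes (66.9%).

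**Figure D4:**
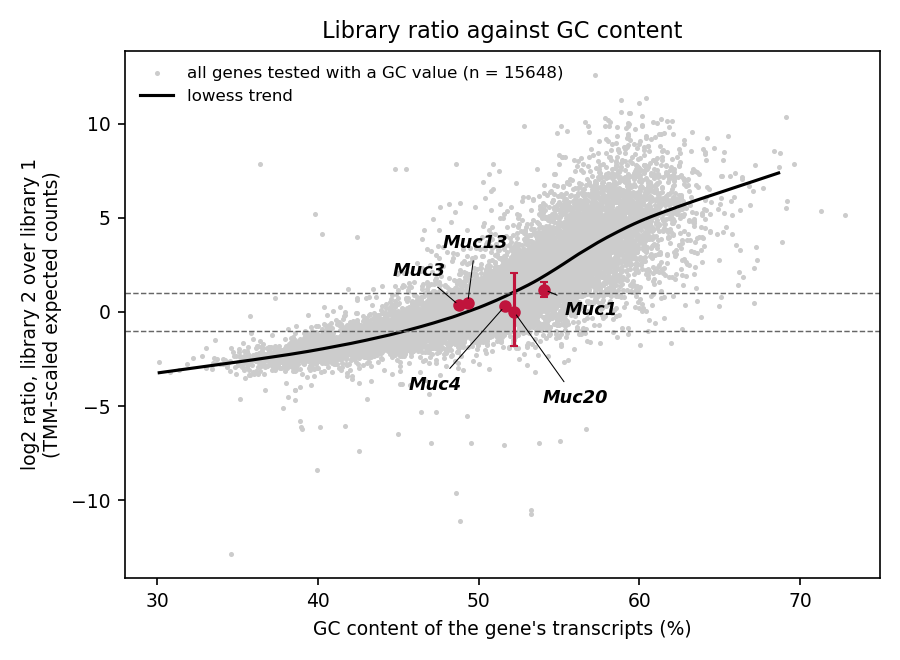
Log2 ratio of library 2 over library 1 (TMM-scaled expected counts) against GC content in percent, for all 15648 genes tested with a GC value (grey), with the lowess trend (black), dashed lines at 2-fold and the 5 members in red with 95% counting intervals. Muc3 and Muc13 lie just above the trend, and Muc4 and Muc1 below it. Muc20, on 5 and 7 counts, has an interval of -1.82 to 2.05 that spans the trend at its GC content (1.05).

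Receptor partners and ligands were present at low to moderate levels, with 1 gene of 11 tested higher and 5 lower in library 2, beside 37.2% higher and 28.3% lower over all genes. Erbb3 was at 57.3 and 139 TPM (log2 ratio 0.10), while Erbb2, the partner of Muc4, was at 1.89 and 76.4 TPM (4.12, at 57.4% GC, and 0.46 with the GC trend taken off). Met, the partner of Muc20, was at 17.8 and 17.2 TPM (-1.23, at 45.6% GC). The 4 receptors tested had a median log2 ratio of -0.48, beside 0.12 over all genes. The 7 ligands had a median of 0.11, with 3 lower and 4 within 2-fold. With the GC trend taken off, 0 of the 4 receptors and 0 of the 7 ligands were 2-fold apart, beside 26.6% of all genes. Of the ligands Tgfa was at 3.63 and 14.3 TPM, Areg at 7.52 and 7.57 TPM, and Hbegf at 3.14 and 8.88 TPM.

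Cytoplasmic and extracellular binding partners included some of the more abundant genes of the lists. Ctnnb1, which encodes beta-catenin, was at 207 and 424 TPM (log2 ratio -0.15), and Ezr, an actin linker of microvilli, was at 90.0 and 315 TPM (0.60). Slc9a3r1, a PDZ scaffold of the brush border, was at 9.64 and 165 TPM (2.93, at 58.5% GC). Of the 8 cytoplasmic partners tested, 3 were higher, 2 lower and 3 within 2-fold, with a median of 0.48. All 4 extracellular partners were higher in library 2, beside 37.2% of all genes, with a median of 2.13 and GC content from 55.4 to 56.6%. Lgals3, the galactose-binding lectin galectin-3, led them at 224 and 1692 TPM (1.76), and Msln, the mesothelin that Muc16 binds, was at 0.13 and 2.41 TPM. With the GC trend taken off, the extracellular partners came to a median of -0.88, with Lgals3 at -0.97, Msln at 0.12, Icam1 at -1.5 and Siglec1 at -0.79, so 0 were 2-fold higher and 1 was lower. The cytoplasmic partners then had 1 higher, 1 lower and 6 within 2-fold, with Slc9a3r1 at -1.28. Over all genes, 14.6% were higher and 12.1% lower with the trend taken off.

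Enzymes that cleave or glycosylate mucins were split in direction. Of 7 proteases, 3 were higher, 3 lower and 1 within 2-fold, with a median of 0.93, where 37.2% of all genes were higher and 28.3% lower. Psenen, of the gamma-secretase complex, was at 8.95 and 128 TPM, and the sheddase Adam10 was at 71.8 and 43.4 TPM (-1.91). Of 7 O-glycan enzymes tested, 2 were higher, 3 lower and 2 within 2-fold, with a median of -0.21. C1galt1, the core 1 galactosyltransferase, was at 179 and 70.9 TPM (-2.50, at 39.8% GC), and its chaperone C1galt1c1 at 105 and 63.2 TPM (-1.90). B3gnt3, which extends core 1, was at 20.7 and 154 TPM (1.73), and St6galnac1 had 0 counts in both libraries. With the GC trend taken off, 1 protease was higher and 0 lower, and 0 O-glycan enzymes were higher and 1 lower, beside 14.6% higher and 12.1% lower over all genes.

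Of 8 epithelial transcription factors tested, 6 were higher in library 2, 0 were lower and 2 were within 2-fold (37.2% higher and 28.3% lower over all genes), with a median of 1.51 and GC content from 52.4 to 62.1%. Klf4 was at 214 and 312 TPM (-0.65), Hnf4a at 49.2 and 348 TPM (1.31) and Elf3 at 12.6 and 373 TPM (3.79). With the GC trend taken off, 1 was higher, 4 were lower and 3 were within 2-fold, with a median of -0.64. Over all genes, 14.6% were then higher and 12.1% lower. Hnf4a then came to -1.12 and Elf3 to 0.69, so the direction of Hnf4a depends on the trend.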

How the data were processed

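Polyadenylated RNA of 1 mouse was measured in 2 technical libraries. The authors deposited tables of genes and of transcripts on mm10 with GENCODE M4, as their accompanying text files state. For the aligner, the quantifier and the use of strand, names and settings were not given in the sources used here. The deposited values were, per the file headers, expected counts (estimated by a model), TPM and FPKM levels, posterior means, and a percent share of the gene for every transcript. The posterior SD of each count is a deposited signal of assignment uncertainty, per the file headers. Depth was 25843064 and 20681574 expected counts.

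The members and lists were chosen with earlier results of these data known. Symbols matched 42462 of 43346 genes. Positions came from GENCODE M21 on GRCm38, the same assembly with a later annotation. GC content was averaged over a gene's transcripts, weighted by TPM. Promoter windows came from RefSeq. Named were all members, up to 3 genes per list with the highest mean TPM, list genes at least 2-fold apart where a sentence needed them, and for each member with a mean of at least 5 TPM the 3 nearest genes. Gm3054, Muc3a and Gm15657, and those list genes at or near 0, were named after their values were seen.

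Levels are TPM with mean and SD. The library ratio uses rounded expected counts, a prior count of 0.5 and TMM scaling (edgeR 4.0.16, R 4.3.3; scale of library 2 over library 1 1.35), with exact Clopper-Pearson 95% intervals for counting error. With 1 library on each side there is no p-value. Genes needed a mean of at least 10 counts, and 2-fold was the threshold. Trends were fitted by lowess (fraction 0.2, statsmodels 0.14.6, Python 3.11.15). Alternatives were DESeq2 1.42.0 size factors, upper-quartile scaling, TPM ratios, GC and length trends, other count minimums, a prior count of 5, FPKM, posterior means, and each library left out. The ratio code was tested on simulated data. Some list genes and 1 sequence are not reported here.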

Additional observations from a re-analysis of the deposited data

How the results depend on the processing

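The order of the members and the leading share of Muc3 held in each library alone. The members' summed level of 1749 TPM became 3144 when TPM was rescaled over nuclear protein-coding genes, and was 1659 by posterior mean, 1320 by FPKM, and 882 to 2616 with a library left out. The Muc3 share of 72.4% became 58.3% by expected counts, and ran from 71.1 to 73.7% with a library left out. The Muc4-206 share of 33.9% became 68.0% by expected counts, and ran from 24.2 to 43.6% with a library left out. The count of members at least 2-fold apart, 1 with TMM, became 5 by the ratio of TPM values and 0 with the length trend taken off. These counts include Muc20, which has too few counts for a ratio to be read. Without Muc20, every matched member was past 2-fold by the ratio of TPM values, and 0 were with the GC trend taken off. The count with Muc20 included stayed 1 under the other settings, including Muc3 counted with Gm3054, an alternative chosen after seeing the data. With the GC trend taken off that 1 is Muc20, on 5 and 7 counts, at -1.04, and Muc1 reverses to -0.73. Over 8 settings the log2 ratio ran from -0.73 to 2.43 for Muc1, from -0.35 to 1.52 for Muc3, from -0.52 to 1.92 for Muc4 and from 0.29 to 1.66 for Muc13. Genes at least 2-fold apart numbered 10293, against 4170 with the GC trend taken off and 8527 to 12978 under the other count minimums, scalings and trend. The share of these that were higher in library 2 was 56.8%, 91.2% by the ratio of TPM values, and 47.7 to 56.6% otherwise. Beyond the trends' own construction, the cause of these shifts was not tested. No paired analysis was possible because the libraries form 1 group of 1 mouse. Depth limits Muc20 and the Muc16 transcript, each at 7 counts or fewer per library.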

Other observations

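Among other membrane mucins, 5 of 8 listed symbols matched a row, while the symbols Muc12, Muc17 and Muc21 matched none. Whether these 3 genes have a row under another symbol, that of a member included, was not tested. Of the 4 with enough counts, Mcam was higher in library 2, Cd164 and Emcn were lower and Podxl was within 2-fold, with a median log2 ratio of -0.38. Over all genes, 37.2% were higher and 28.3% lower. With the GC trend taken off 0 of the 4 were 2-fold apart, beside 26.6% of all genes. Cd164, a sialomucin of endosomes and the cell surface, was the most abundant at 302 and 165 TPM (log2 ratio -2.06, at 41.7% GC). By TPM it stood between Muc13 and Muc4 in library 2 and above Muc13 in library 1. Mcam, an adhesion molecule of endothelium and smooth muscle, was at 4.48 and 33.4 TPM (1.75, at 53.1% GC). Podxl, a sialomucin of podocytes and endothelium, was at 4.51 and 13.4 TPM, and Emcn, an endothelial mucin, was at 8.71 and 7.98 TPM. The 4 blood endothelial markers summed to 13.2 and 48.2 TPM. Muc15 had 6 and 0 counts.

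Muc3a (ENSMUSG00000094840.1, chr5:137208813-137212389, minus strand) is annotated near Muc3 and carries a GENCODE note of an error in the reference genome. It had 520 counts in library 1 and 3326 in library 2, at 12.8 and 136 TPM, with a log2 ratio of 2.25 (95% counting interval 2.11 to 2.38) at 52.3% GC. Muc3 itself differed by 0.35. The transcripts of both genes that have a sequence in GENCODE M21 shared 0 words of 31 bases. Whether both belong to 1 gene was not tested.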
